A study of Xenopus laevis with 6 samples.

Results

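The genes described here act in the bone morphogenetic protein (BMP) pathway as negative feedback, as direct targets or as modulators outside the cell. They are the Id genes, bambi, the inhibitory Smads, bmper and tll1. Members were all probe sets whose platform gene symbol, without the ending .L or .S, equals 1 of 10 listed names. These endings mark the homeologs, the duplicate copies of a gene on the long and short chromosomes of the allotetraploid frog Xenopus laevis. The rule found 12 of the 32634 probe sets on the array, for 7 of the 10 genes (9 of 11302 gene symbols with the homeologs counted apart): id2, id3, id4, bambi, smad7, bmper and tll1. No probe set carries the symbol id1, smad6.1 or smad6.2, so these 3 were not analysed here. Since the array lists smad6 without a number, its 3 probe sets (smad6.L and smad6.S) are given beside the members and kept out of their counts. The same holds for 2 probe sets that list several symbols of 1 member, bambi.S with bambi.L and id3 with id3.L.

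The arrays come from dorsal pieces of stage 10.5 gastrulae, each array from a pool of 10 embryos. At the 4-cell stage, embryos received 10 ng of a morpholino oligonucleotide (MO), an antisense molecule that blocks translation or splicing, in each dorsal blastomere. The control group of 3 arrays had a control MO and the depleted group of 3 arrays an MO against apcdd1. Both groups were kept at 16 degrees C, and the labels give no other treatment. The labels do not say which kind of MO was used. The treatment text of the control samples names the apcdd1 MO, and the grouping follows titles and genotype labels. Only depleted embryos carried a ventral dye mark, so handling and group cannot be told apart. A late dorsal lip was noted for some of the depleted embryos, so developmental progress and group cannot be told apart either. Nothing in the labels says whether batches came from separate clutches, and the p-values rest on the spread among 3 batches per group, which may be technical. The pieces hold many cell types, and in such bulk RNA fewer cells of a type and less RNA per cell cannot be told apart.

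BMP ligands bind receptor kinases at the cell surface, the receptors phosphorylate Smad1 and its relatives, and these enter the nucleus with Smad4 to switch on target genes. Several of the targets dampen the signal that induces them. In the Xenopus gastrula BMP signals are high ventrally and low dorsally, where Chordin and other secreted proteins of the organizer bind the ligands, and bambi, smad6 and smad7 are expressed together with bmp4. Apcdd1, a protein of the cell membrane, is known to dampen Wnt and BMP signalling. The comparison was set up to use the members' RNA as a readout of BMP signal in the dorsal piece. Whether their RNA follows BMP signal in these pieces, and BMP signal alone, was not tested.

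None of the 9 member probe sets bright enough to test passed the threshold, and the log2 changes lay between -0.03 and 0.30. The threshold was an adjusted p of 0.05 in limma after Benjamini-Hochberg adjustment over 19484 probe sets, of which 6.62% passed (3.00% higher and 3.61% lower in depleted embryos). A probe set was tested if its mean log2 signal was at or above the 40th percentile, a signal of 22.3. Of the 9, 7 had a log2 change above 0, against 50.1% of all tested probe sets, and the median change was 0.13 against 0.00. These 9 probe sets come from only 5 genes and are not 9 separate readings. With each of the 7 homeologs by its brightest probe set, 6 were above 0, against 4005 of the 8216 symbols tested. Members without overlap between the groups numbered 2 of 9, both higher in depleted arrays, where 11.9% of all tested probe sets were higher without overlap. At an unadjusted limma p under 0.05 there were also 2 of 9, against 19.0% of all tested probe sets (8.99% in the higher direction). The intervals bound the sizes of the array signal changes only. They hold for 1 probe set at a time, without adjustment for their number, and rest on the spread among these batches. The 95% interval of the fold change excluded a 1.5-fold decrease for 9 of the 9 probe sets and a 1.5-fold increase for 8, the exception being the brighter tll1.S probe set with an upper bound of 1.51.

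**Figure D1:**
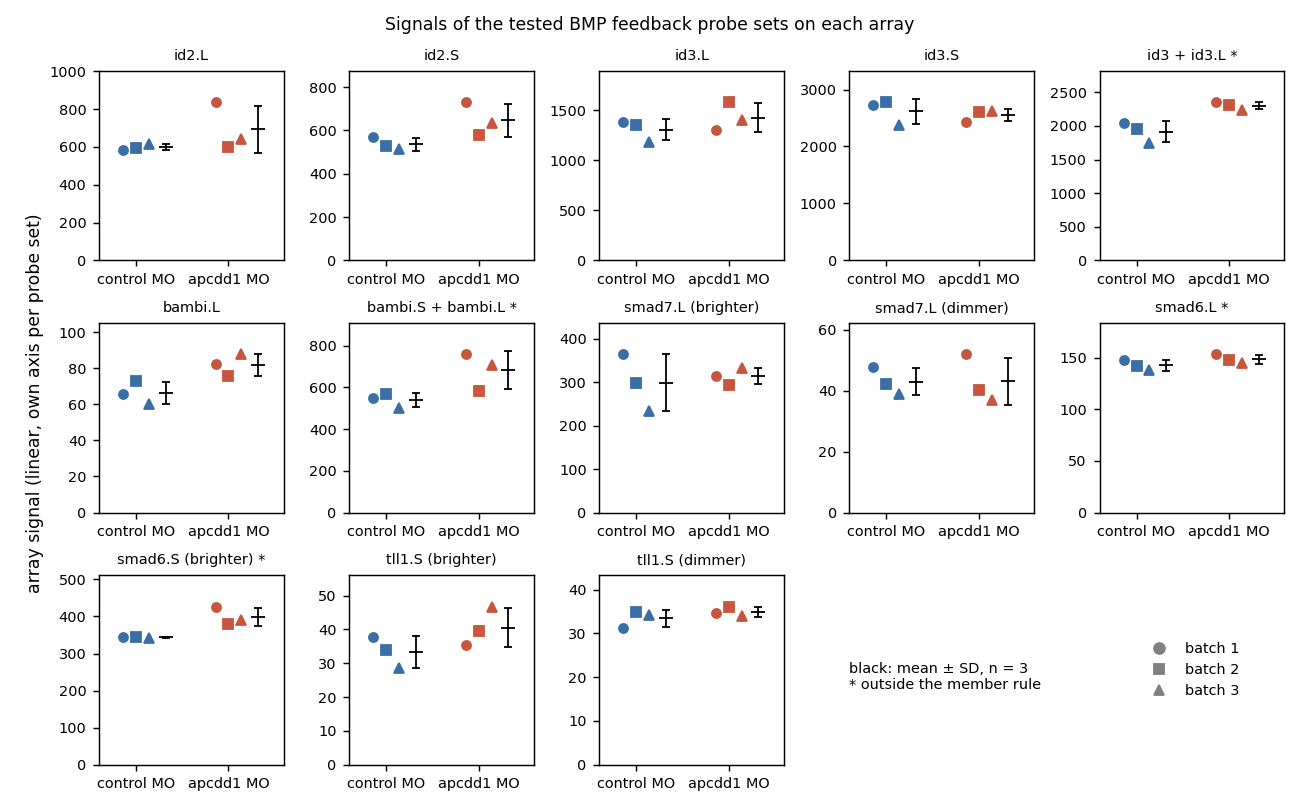
Array signal (linear, 1 axis per probe set starting at 0) of the 13 tested probe sets on 3 control and 3 depleted arrays, with marker shape for the batch number and black bars for mean ± SD (n = 3). Depleted arrays lie above all control arrays for id2.S, bambi.L, the probe set of id3 and id3.L, that of both bambi homeologs and the brighter smad6.S probe set, the last 3 being outside the member rule.

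Id proteins are helix-loop-helix factors without a DNA-binding region, which hold E proteins away from DNA, and their genes are direct BMP-Smad targets in many tissues. Signals of id2.S were 567, 527 and 513 on the control arrays and 729.9, 579.6 and 633 on the depleted arrays. Every depleted array thus lay above every control array, the gap between the nearest arrays being small beside the spread of the depleted arrays. The log2 change was 0.27 ± 0.09 (SE), with means of 535 ± 28.4 and 648 ± 76.1 (SD, n = 3) and adjusted p = 0.12 in limma. Its homeolog id2.L stood at 587, 597 and 617 in controls and at 837, 602 and 643 in depleted embryos. Here the groups overlapped, since depleted 2 lay below control 3, and depleted 1 stood far above the other arrays. The log2 change of id2.L was 0.19 ± 0.11 (SE, adjusted p = 0.40 in limma). Without depleted 1 it was 0.05 for id2.L and 0.18 for id2.S, so the size of the id2.L value rests on that array.

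id3 was measured by 1 probe set for each homeolog and 1 that lists id3 together with id3.L. Signals of id3.L were 1380, 1354 and 1182 in controls and 1303, 1580 and 1398 in depleted arrays, with a log2 change of 0.13 ± 0.08 (SE, adjusted p = 0.48 in limma). Those of id3.S were 2719, 2776 and 2369 against 2436, 2607 and 2621, with a log2 change of -0.03 ± 0.07 (adjusted p = 0.85 in limma). For both homeologs the groups overlapped and control 3 was the lowest of the 6 arrays. The shared probe set of id3 and id3.L went further, with 2050, 1955 and 1744 in controls and 2353, 2310 and 2245 in depleted arrays. On it depleted embryos were higher without overlap, by 0.27 ± 0.06 on the log2 scale (SE, means 1916 ± 156 and 2303 ± 54.6, SD, n = 3), and it passed with adjusted p = 0.039 in limma. That call was lost when any array but control 1 was left out, with adjusted p between 0.065 and 0.12 in limma for the other 5, and with plain eBayes (adjusted p = 0.11). The probe set names of id3.L and of this shared one end in _x_at and _a_at, by which Affymetrix marks probes that can also match other sequences and probes common to transcript variants, so their signal may not come from 1 homeolog alone.

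Homeologs of id2 and id3 were also compared directly, by the within-array difference of the log2 signals of L and S, fitted with limma over 1385 homeolog pairs, of which 12.1% passed. For id2 the log2 change of L minus that of S was -0.07 ± 0.08 (SE), with a 95% interval from -0.26 to 0.11 and adjusted p = 0.62 in limma. For id3 it was 0.16 ± 0.08, from -0.01 to 0.33, with adjusted p = 0.22 in limma. A difference between the homeologs was thus not detected in either gene, though for both the interval reaches differences larger than the change of the L homeolog itself.

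id4.S gave only dim signals on both of its probe sets, all under the filter's signal of 22.3 and not shown to be above background. In the fit without the filter, where 0.793% of the 12990 dim probe sets passed (0.323% lower), the dimmer one was called lower. It read 8.71, 9.49 and 9.86 in controls and 6.84, 6.03 and 6.13 in depleted arrays, a log2 change of -0.56 ± 0.09 (SE, adjusted p = 0.0057 in limma). The brighter one, at 12.1, 12.9 and 17.7 against 11.96, 11.96 and 12.36, did not pass, with -0.21 ± 0.14 and overlapping groups (adjusted p = 0.55 in limma). With 16 added to each signal before the log, the change of the dimmer probe set shrank to -0.18, so its log2 change is not read as a fold change of RNA.

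bambi encodes a membrane protein like a BMP receptor but without the kinase domain, which blocks receptor signalling, and it is expressed with bmp4 in the Xenopus embryo. Signals of bambi.L were 65.7, 72.7 and 60.4 in controls and 82.1, 75.7 and 87.6 in depleted arrays. The groups did not overlap, although depleted 2 was close to control 2. Its log2 change, 0.30 ± 0.10 (SE), was the largest of the tested members, from 66.3 ± 6.17 to 81.8 ± 5.96 (SD, n = 3), with adjusted p = 0.13 in limma. The fold of 1.24 has a 95% interval from 1.05 to 1.45.

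A second, brighter bambi probe set lists both homeologs and cannot tell them apart. It read 550.4, 568 and 501 in controls and 758, 582 and 705 in depleted arrays, again without overlap. The log2 change was 0.33 ± 0.10 (SE), with means of 539.9 ± 34.9 and 682 ± 90.3 (SD, n = 3) and adjusted p = 0.088 in limma. Without depleted 2 it was 0.44 and passed (adjusted p = 0.024 in limma), and without depleted 1 it was 0.25 (adjusted p = 0.25). Both bambi probe sets were thus 24 to 26% higher on average, and neither passed in the unweighted fit of all 6 arrays. With array weights, 4449 of the 19484 tested probe sets passed in place of 1289. In that fit the shared bambi probe set passed (adjusted p = 0.025 in limma) and bambi.L did not (0.086).

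Smad7 and Smad6 are inhibitory Smads, which bind the activated receptors or the signalling Smads and end the signal. The brighter smad7.L probe set read 364, 299 and 234 in controls and 313, 295 and 332 in depleted arrays, so the depleted arrays lay inside the range of the controls. Its log2 change was 0.09 ± 0.14 (SE, adjusted p = 0.81 in limma), turning to -0.08 without control 3. The dimmer one read 47.9, 42.2 and 39.1 against 51.9, 40.2 and 37.1, with a log2 change of -0.01 ± 0.14 (adjusted p = 0.98). On both probe sets control 1 was the highest control array and control 3 the lowest. The coefficient of variation of the brighter one was 21.6% among controls, the highest of the tested members. No probe set carries the symbol smad7.S.

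The smad6 probe sets, outside the rule, cover both homeologs, and neither homeolog passed in the unweighted fit of all 6 arrays. The brighter smad6.S probe set read 343.9, 345 and 343 in controls and 426, 379.8 and 389 in depleted arrays. Controls were nearly identical and all depleted arrays stood above them, with a log2 change of 0.21 ± 0.07 (SE) and adjusted p = 0.12 in limma. smad6.L, at 148, 142 and 138 against 153, 147 and 144, overlapped and changed by 0.06 ± 0.07 (adjusted p = 0.75 in limma). The difference between the smad6 homeologs is not reported here, as only the member pairs were read from the fit of homeolog pairs. The other smad6.S probe set was dim (15.4 ± 1.03 and 14.5 ± 0.40, SD, n = 3).

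**Figure D2:**
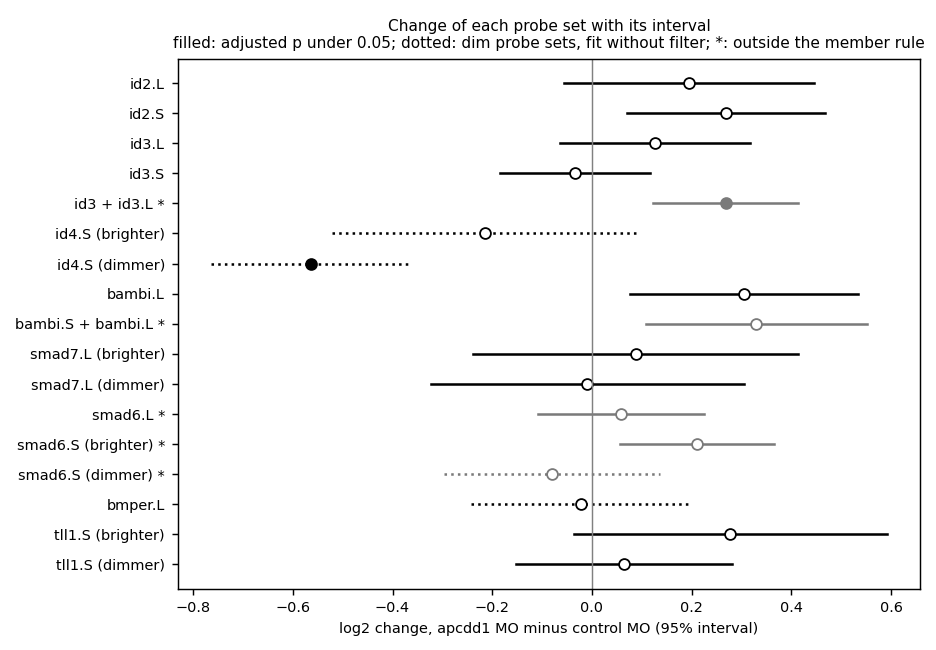
Log2 change (apcdd1 MO minus control MO, horizontal axis) of each member and related probe set with its 95% interval from limma, grey for those outside the member rule and dotted for dim probe sets fitted without the filter. Filled points passed the threshold: the probe set of id3 and id3.L at 0.27 and the dimmer id4.S probe set at -0.56, while bambi.L (0.30) and id2.S (0.27) have intervals above 0 and did not pass after adjustment.

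The remaining members act outside the cell. tll1 encodes a Tolloid-like metalloprotease, an enzyme of the kind that cleaves Chordin and so frees BMP. The brighter tll1.S probe set read 37.9, 33.9 and 28.5 in controls and 35.3, 39.5 and 46.7 in depleted arrays, which overlap through depleted 1 and control 1. The log2 change was 0.28 ± 0.14 (SE), from 33.4 ± 4.69 to 40.5 ± 5.79 (SD, n = 3), with adjusted p = 0.33 in limma. The dimmer one read 31.2, 34.9 and 34.2 against 34.6, 36.1 and 34.0 and changed by 0.06 ± 0.10 (adjusted p = 0.79). bmper, known as crossveinless-2, encodes a secreted protein that binds BMP and Chordin and can promote or inhibit the signal. bmper.L was dim on every array, with 12.6, 12.6 and 12.9 in controls and 13.6, 11.4 and 12.54 in depleted arrays. In the fit without the filter its log2 change was -0.02 ± 0.10 (SE, adjusted p = 0.96 in limma), and signals this low do not show whether the gene was expressed in the piece.

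Among the controls, batch 3 was the lowest array in 7 of the 9 tested member probe sets, whereas it was the lowest in 35.4% of all tested probe sets. Without it, 6 of the 9 changes were above 0 and their median was 0.08 in place of 0.13. Leaving out any of the other 5 arrays kept 7 or 8 of the 9 above 0. Depleted 1 was the highest depleted array in 3 of the 9. No left-out array brought a member past the threshold, and the lowest adjusted p among the members was 0.074 in limma, for id2.S without depleted 2.

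**Figure D3:**
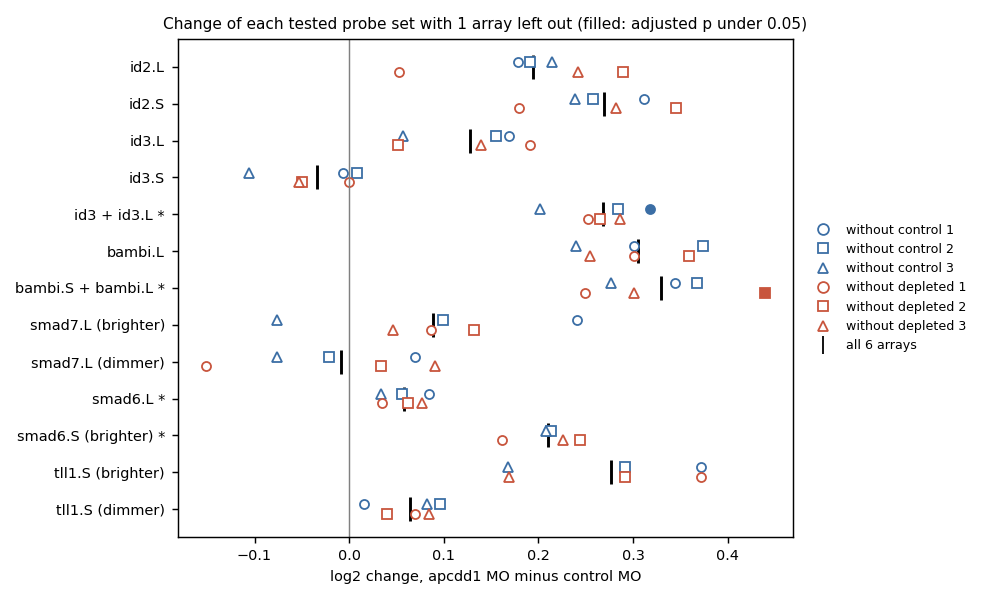
Log2 change (apcdd1 MO minus control MO) of the 13 tested probe sets with all 6 arrays (black bar) and with each array left out in turn (blue without a control, red without a depleted array, marker shape for its batch). Without depleted 1, id2.L moves from 0.19 to 0.05, and without control 3 the brighter smad7.L probe set moves from 0.09 to -0.08.

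Members were set beside other genes of the pathway, in 6 lists by role, each gene represented by its brightest probe set. The lists were chosen with earlier results of these data known. Their counts beside the share of the array thus describe the lists and do not test them. Of the 89 symbols tested in these lists, 6 were called higher and 5 lower in limma, against 7.28% of the 8216 symbols tested on the array (3.12% higher and 4.16% lower). Of 8 ligand genes, 1 was called lower, admp.S, a BMP-like ligand of the organizer (1200 ± 118 to 867 ± 40.1, SD, n = 3), and 0 higher. Without control 3, 2 were lower. bmp4.S had a log2 change of -0.36 ± 0.14 on its brightest probe set (SE, adjusted p = 0.21 in limma) and of -0.72 ± 0.13 on its other one, which was called lower (adjusted p = 0.0085). The 10 receptor and co-receptor genes gave no call in either direction and a median log2 change of -0.01, with acvr1.S, a type I receptor gene, nearest at -0.24 ± 0.06 (SE, adjusted p = 0.051 in limma). With centring on the median, the filter at the 60th percentile or array weights, 1 gene of this list was called lower. Array weights also gave 1 higher. Of 26 genes for Smads and their cofactors 1 was lower, stub1.L, a ubiquitin ligase gene (135 ± 3.62 to 99.9 ± 8.92), and 25 did not pass. Among these were smad1.L and smad1.S, with log2 changes of 0.02 ± 0.06 and 0.11 ± 0.07 (SE). Further smad1.S probe sets changed by 0.22 ± 0.07 and 0.13 ± 0.06, higher without overlap but not passing (limma adjusted p = 0.14 and 0.28). Another, at 0.09 ± 0.09, overlapped. The 8 genes of E proteins and Ets factors, partners of Id proteins known from mammals, gave no call and a median change of 0.01.

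Extracellular modulators and transcriptional targets held most of the calls. Of 17 modulator genes 2 were lower, the BMP antagonist genes chrd.1.S and fst.L, 1 was higher and 14 did not pass. Only 3 of the 17 had a change above 0, and the median log2 change was -0.11. Other antagonist genes, nog.L and cer1.S, changed by -0.13 ± 0.17 and -0.08 ± 0.11 (SE) and did not pass. fst.L was dim, near the filter, at 37.4 ± 3.66 and 24.2 ± 4.36 (SD, n = 3). Its log2 change ranged from -0.78 to -0.20 across the alternatives. The call of fst.L was lost without control 1, control 2, depleted 2 or depleted 3 (limma adjusted p from 0.074 to 0.10), and that of stub1.L without control 2 (0.072). The one that was higher, twsg1.S, encodes Twisted gastrulation, which binds BMP and Chordin. It read 317, 301 and 286 in controls and 351, 373 and 382 in depleted arrays, without overlap. The log2 change was 0.29 ± 0.07 (SE, adjusted p = 0.040 in limma), and its other probe set rose as well, from 122 ± 0.59 to 168 ± 18.2 (SD, n = 3, adjusted p = 0.018). With any array but control 1 left out, the call on the brightest probe set was lost (limma adjusted p from 0.053 to 0.16), and twsg1.L changed by 0.02 ± 0.06.

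Of 21 transcriptional target genes 5 were called higher and 1 lower, and 15 did not pass. Only 12 of the 21 had a change above 0, and the median log2 change was 0.04, so the list did not rise as a whole. The genes called higher were foxi1.L, ventx1.2.S, both homeologs of ventx2.1 and klf2.S, a Krüppel-like factor gene. The gene called lower was gata3.S. The name of the ventx2.1.L probe set ends in _x_at, like that of id3.L, so its signal may not come from that homeolog alone. klf2.S, named after its values were seen, read 175, 192 and 160.4 in controls and 279.9, 217 and 247 in depleted arrays, a log2 change of 0.49 ± 0.11 (SE, adjusted p = 0.023 in limma). Its other probe set changed by 0.33 ± 0.10 and did not pass (adjusted p = 0.079). The klf2.S call was lost without control 1, depleted 1 or depleted 3 (limma adjusted p from 0.053 to 0.091), and that of ventx2.1.L without depleted 2 or depleted 3 (0.065 and 0.068). For ventx2.1.S, a homeobox repressor gene induced by BMP, the log2 change was 0.47 ± 0.07, against 0.30 ± 0.10 for bambi.L and 0.27 ± 0.09 for id2.S. These differences in size between genes were not tested, and array signal changes of different probe sets need not be on equal scales.

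**Figure D4:**
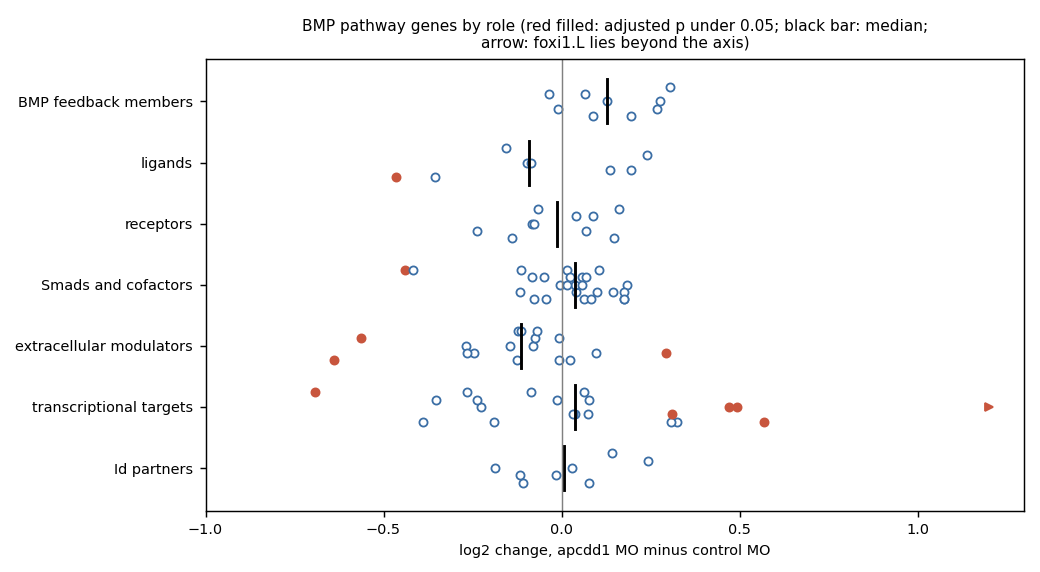
Log2 change (apcdd1 MO minus control MO, horizontal axis) of the 9 tested member probe sets and of the genes in 6 pathway lists, 1 point per probe set or gene, red and filled for adjusted p under 0.05, with the median of each row as a black bar. The members' median is 0.13 with no call. The targets hold 5 calls above 0 and 1 below around a median of 0.04, with foxi1.L at 3.73 beyond the axis.

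Markers of the regions that a dorsal piece can hold were read on the same arrays, and not every list differed between the groups. The marker lists, too, were chosen with earlier results of these data known, and their counts are description only. Dorsal markers, a list of 20 symbols, were clearly measured, with 22 homeologs tested. The list holds organizer genes such as gsc, and also mix1 and pnhd. Its summed signal was 27704 to 30724 in controls and 25120 to 25981 in depleted arrays. The control means of mix1.L and mix1.S within that sum were 2817 and 3626. Of the 8216 symbols tested on the array, 7.28% were called (3.12% higher and 4.16% lower), and 4005 had a change above 0. Of the 22 homeologs, 4 were called lower, 0 higher and 0 had a change above 0. The count of 4 fell to 2 without control 1, without depleted 2, without the filter, with the replicate block and with plain eBayes, and was 8 with array weights. The call of hhex.L was lost with any array but control 3 left out (limma adjusted p from 0.083 to 0.19), and that of frzb.L with any but control 2 (0.069 to 0.15). shh.L and foxa2.L were under the filter. Of 13 ventral markers 3 were called higher and 1 lower, but only 4 had a change above 0, and the median log2 change was -0.16. Their sum was 4200 to 4488 against 4828 to 5069. Within it ventx2.1.L went from a mean of 1115 to 1379 and ventx2.1.S from 991 to 1370, so the sum does not describe most of the list. The marker lists overlap with those above, as 9 of the ventral and 5 of the ectoderm markers are also in the target list. The modulator list shares 3 of the dorsal markers, and the ligand list 2 of the ventral ones. The calls of ventx1.2.S, both ventx2.1 homeologs, foxi1.L, gata3.S and chrd.1.S are therefore the same calls as above. Of 11 ectoderm markers 4 were higher and 1 lower, with a sum of 2651 to 3342 against 3743 to 3941, and without foxi1.L 2601 to 3281 against 2998 to 3217. The 4 higher ectoderm calls fell to 2 without control 1, without depleted 3 and with the replicate block, and grhl1.L lost its call without control 1, control 2, depleted 2 or depleted 3 (limma adjusted p from 0.061 to 0.091). The 1 lower call became 2 without control 1 among ectoderm markers, and 2 without control 3 or depleted 2 among ventral markers. Under the filter were 8 further ectoderm symbols, among them the homeologs of dlx3, itln1.L and most epidermal keratin genes of the list. Of 18 endoderm markers 2 were lower and 0 higher, with a sum of 17567 to 18855 against 16871 to 18947, and 1 was higher without control 1. The part of these shifts in the members' changes was not tested.

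The targeted gene had 1 probe set, apcdd1.L, which read 314, 299.8 and 310.4 in controls and 229, 252 and 258 in depleted arrays (adjusted p = 0.027 in limma). With 1 array left out it passed only without control 3 (limma adjusted p otherwise 0.060 to 0.094). The median signal of the 6 arrays ran from 44.4 to 45.7. The gapdh 3' to 5' ratio was 1.752, 1.807 and 1.751 in controls and 1.815, 1.841 and 1.951 in depleted arrays. Every depleted array thus lay above every control array, and the part of this in the changes was not tested.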

How the data were processed

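Signals came from 3 control and 3 depleted arrays, 1 per batch. The authors deposited linear signal intensities for 32634 probe sets, for which MAS5 is named per the submitters' processing notes, with no version or settings. Control probe sets (160) were set apart. Signals were raised to at least 1 (0 values moved) and log2-transformed without further scaling, and 19484 probe sets at or above the 40th percentile of mean log2 signal were fitted with limma 3.58.1 in R 4.3.3 (lmFit, eBayes with trend and robust, two-sided, Benjamini-Hochberg adjustment), without a replicate block. Symbols are those of the platform annotation. Named genes were all members and, per list, up to 4 called genes with the lowest p. No called member allowed a search for genes of like pattern. Members, lists and tests were chosen with earlier results of these data known. Precision is set by the number of arrays, and the smallest p that permuting 3 against 3 arrays allows is 0.1. Methods were tested on simulated data, with 200 of 19484 probe sets changed. The fit recovered 14.9% of 1.25-fold, 53.7% of 1.5-fold and 89.4% of 2-fold changes, and 2.78% of its calls were false. Since far fewer probe sets were changed there than were called in these data, the shares need not hold here. No promoter, protein or probe sequences were used here, so the planned motif and identity comparisons were not run. Alternatives were an added 16 or 64 before the log2, quantile normalization, centring on the median, dropping the filter or raising it to the 60th percentile, the replicate block, plain eBayes, array weights, leaving out each array, and all probe sets per gene. Counting the related probe sets as members, and varying the other choices for dim members, were added after seeing the data.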

Additional observations from a re-analysis of the deposited data

Results flagged for a closer look

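The dimmer id4.S probe set, left out of the main measurement by the filter on low signals, was called lower in depleted embryos in the fit without the filter, with a log2 change of -0.56 and adjusted p = 0.0057 in limma. It kept its direction and its call under the 13 alternatives run for it (limma adjusted p from 0.0010 to 0.037), while its log2 change ranged from -0.62 to -0.06, the smallest with 64 added to each signal. All of its signals, 6.03 to 9.86, are below 22.3, the lowest mean signal that was tested, and the other id4.S probe set did not pass.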

How the results depend on the processing

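The count of members past the threshold was 0 with 16 or 64 added before the log2, under quantile normalization or centring on the median, with the filter at the 60th percentile, with the replicate block, with plain eBayes and with each left-out array. It was 1 without the filter (id4.S), 2 with array weights (id2.S and the brighter tll1.S probe set) and 1 when the probe sets with several symbols of a member were counted, an alternative chosen after seeing the data. Counting smad6 added 0. Array weights also gave 4449 calls over the 19484 probe sets tested in place of 1289, 23 in place of 11 pathway genes and 300 in place of 167 homeolog pairs. With array weights, the smad6.S and shared bambi probe sets passed too (limma adjusted p = 0.020 and 0.025). Lower calls among dorsal, ventral and ectoderm markers then numbered 8, 3 and 3 in place of 4, 1 and 1, with 4 endoderm markers higher in place of 0. Leaving out single arrays gave 669 to 1430 calls over all probe sets, lowest without control 2 and at 739 without depleted 3. Pathway genes then numbered 7 to 11 (7 without depleted 3) and homeolog pairs 58 to 149. Changes near 0 turned sign with single arrays left out: the dimmer smad7.L probe set from -0.15 to 0.091, the brighter from -0.076 to 0.24, id3.S from -0.11 to 0.0087 and bmper.L from -0.086 to 0.043. Same-numbered control and depleted batches had correlations of deviations of 0.05, 0.02 and -0.27, and the other pairings ran from -0.24 to 0.21. Since deviations were centred within only 3 arrays per group, these values cannot show whether same-numbered batches were prepared together. The replicate block gave 1101 calls over all probe sets, 0 member calls, 11 pathway genes and 102 homeolog pairs, and twsg1.S no longer passed (adjusted p = 0.093 in limma). twsg1.S also did not pass without the filter or with plain eBayes (0.056 and 0.061). The number of arrays limits what can be called. The log2 changes of id4.S and bmper.L rest on dim signals not shown to be above background, and are not read as sizes of a change in RNA.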
